A study of Homo sapiens with 9 samples.

Results

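ASXL2 transcripts in SKNO-1 cells carrying the third of the study's shRNAs against ASXL2 (shASXL2-3) were at 45.5% of the level in control cells (shControl), and 59 genes passed the threshold between these groups when samples were paired by replicate number. The genes that rose included METRNL, NDRG1, AOC1, LGALS1, PRDX3, KMO and CEBPD, and those that fell included PRKG2, COL14A1, DLC1, PAX5, DLL3, TP73 and TAL1. The calls are edgeR's from a fit of all 9 samples of the series. With a correction for transcript length and GC content 23 of the 59 were called, and NDRG1, COL14A1, PAX5, TP73 and TAL1 were not. Without the pairing edgeR called no gene and DESeq2 called 26, 22 of them among the 59, and edgeR also called none when the 6 samples of the comparison were fitted alone with the pairing. The comparison was made of 6 of the 9 RNA-seq samples in the series: 3 of shASXL2-3 and 3 of shControl, chosen by their labels and joined by the numbers 1, 13 and 25 that the labels give. The remaining 3 samples carried another shRNA against the same gene (shASXL2-2). They entered the fit for the shared estimate of spread and served as a comparison.

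SKNO-1 is a human acute myeloid leukaemia line with the RUNX1-RUNX1T1 fusion (AML1-ETO), and all groups carried that fusion. Per the study's methods the line was kept in medium with GM-CSF. The control group is labelled EV, whereas the study's text speaks of a control shRNA, so what the control cells received is uncertain. Labels attached an extraction text on sorted bone marrow fractions to these samples, which is at odds with the stated cell line. The sources used here do not say what the numbers 1, 13 and 25 stand for. The methods speak of 3 biological replicates in each group without saying what was separate for this line, so p-values measure the spread between these samples, which may be technical. A knockdown of this kind leaves part of the transcript in place, and 1 line stands for the disease.

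ASXL2 encodes a Polycomb and Trithorax group protein of the Additional sex combs-like family. These proteins bind the deubiquitinase BAP1, which removes ubiquitin from histone H2A, and they have been linked to histone H3 methylation at lysine 27 and lysine 4. ASXL2 is recurrently mutated in acute myeloid leukaemia with the RUNX1-RUNX1T1 fusion. The fusion protein itself joins the DNA-binding part of RUNX1 to the corepressor-binding protein RUNX1T1.

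Counts per sample ran from 27714431 to 35406063 with 1 transcript row per gene, and 3 counts corresponded to 0.0847 to 0.108 CPM (counts scaled to a common library total). These floors allow for the error of counting alone. In a test of 14199 genes with edgeR's quasi-likelihood F test and Benjamini-Hochberg adjustment, 59 passed an adjusted p of 0.05 (0.416% of the genes tested). Of these, 26 were higher (0.183%) and 33 lower (0.232%) with shASXL2-3. Unadjusted, 2652 genes had a p under 0.05 (18.7%), of which 1332 were higher (9.38%) and 1320 lower (9.3%). The fit with no replicate block gave 0 adjusted calls and 723 genes at an unadjusted p under 0.05 (5.09%), and DESeq2 gave 474 calls with the pairing and 26 without it. Fitted alone with the pairing, the 6 samples gave 0 edgeR calls and 1986 genes at an unadjusted p under 0.05. Calls also rested on single libraries. With all samples of number 1, 13 or 25 left out there were 341, 24 and 1. The count was 368 without shASXL2-3 number 1, 93 without shASXL2-3 number 13, 6 without shControl number 13, and 1 (ASXL2) when shASXL2-3 number 25, shControl number 1 or shControl number 25 was left out.

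The labelled cell type was checked first. MPO, the peroxidase of granulocyte precursors, was at 7150 to 9730 CPM across the 6 samples, and the receptor KIT was at 274 to 419 CPM. SPI1, a myeloid transcription factor, was at 208 to 246 CPM and RUNX1T1, the fusion partner, at 111 to 138 CPM. CD34 was near the floor, at 0.068 to 0.309 CPM. Of 7 T and NK cell markers 4 were at 0 in every sample, the CD3 chain genes among them, and the erythroid marker HBB was also at 0. The summed T and NK markers, nearly all from NKG7, were at 1.12 to 1.14 CPM with shASXL2-3 and 0.605 to 0.767 CPM in shControl, and their part in the results was not tested.

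ASXL2 was measured at 67.9, 67.9 and 74.7 CPM in the shControl samples numbered 1, 13 and 25 and at 26.9, 29.1 and 41.1 CPM in the same-numbered shASXL2-3 samples. The groups did not overlap, and the lowest control was well above the highest knockdown sample. The means were 70.2 ± 3.94 and 32.4 ± 7.66 CPM (SD, n = 3 each), a log2 fold change of -1.13 (SE 0.10, adjusted p = 0.00407). The gene lies at chr2:25956622-26101356 on the minus strand of GRCh37. With shASXL2-2 the level was 34.3 ± 3.35 CPM, and the 2 shRNAs did not differ detectably in ASXL2 (difference -0.10, SE 0.10, adjusted p = 0.706). With no replicate block it stood at -1.12 and did not pass in edgeR (adjusted p = 0.612) but did in DESeq2 (adjusted p = 2.58e-06). In edgeR's fit of the 6 samples alone with the block it stood at -1.14 (adjusted p = 0.0785).

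ASXL1, the paralogue of ASXL2, was not called (157, 149 and 141 CPM in shControl against 140, 127 and 141 CPM, log2 fold change -0.13, adjusted p = 0.341). Nor was BAP1, the catalytic partner, at -0.02 (adjusted p = 0.871). In the list of ASXL and BAP1 complex genes, ASXL2 was the 1 call among 10 tested, and the members next in p were HCFC1 at -0.34 and FOXK2 at -0.21. RUNX1 stood at -0.21 (adjusted p = 0.215) and RUNX1T1 at -0.12 (adjusted p = 0.435). NOTCH2, a receptor of the Notch pathway, stood at -0.12 (adjusted p = 0.437), and TET2, a dioxygenase that oxidises methylated cytosine, at -0.18 (adjusted p = 0.287).

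**Figure D1:**
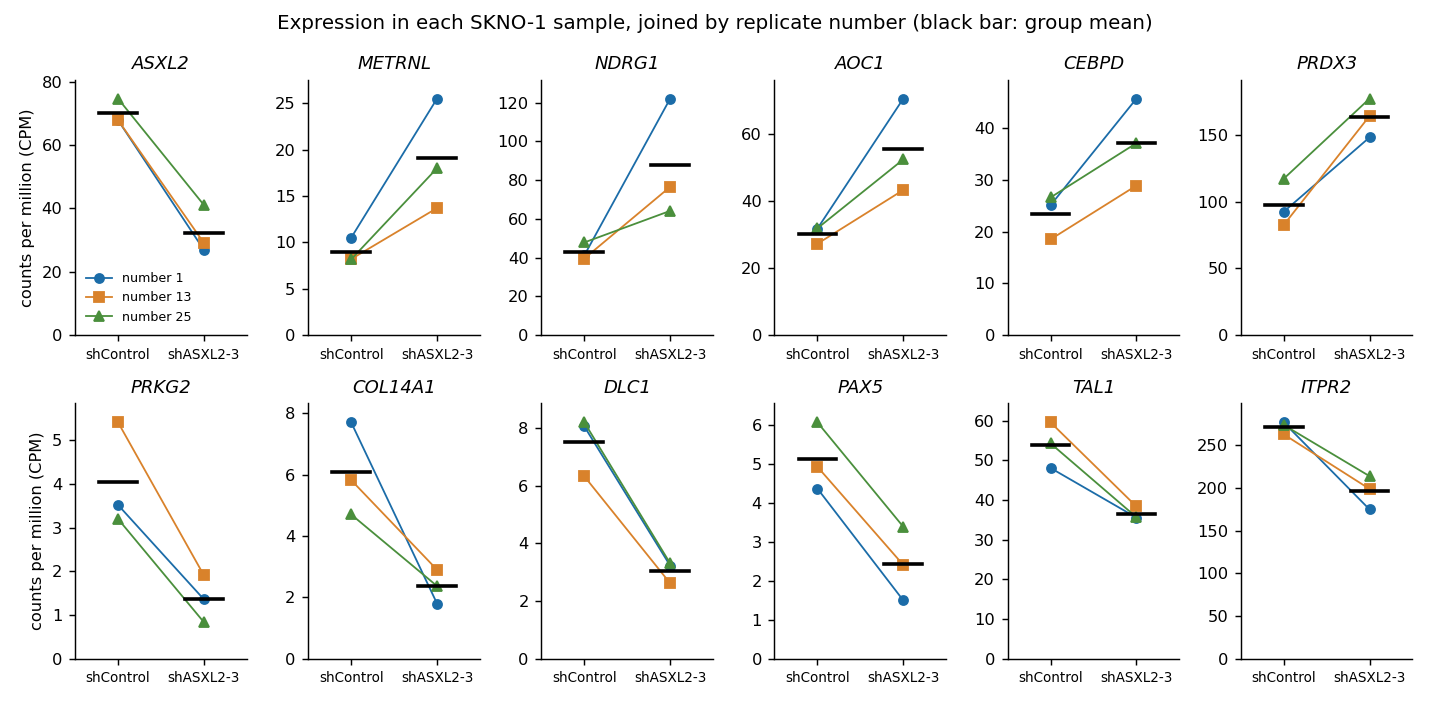
Expression of 12 of the 59 genes past the threshold, in CPM on axes that start at 0, with shControl at left and shASXL2-3 at right of each panel. Lines join samples with the same replicate number and black bars are group means. ASXL2 fell from a mean of 70.2 to 32.4 CPM, and in all 12 panels the 3 shASXL2-3 samples lie on one side of the 3 shControl samples.

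Among the 59 genes, 57 moved the same way in all 3 pairs, as did 20.2% of all tested genes upward and 20.2% downward. The samples of the groups did not overlap for 48 of the 59, against 10.1% of all tested genes. By direction these were 21 of the 26 that rose (4.81% of all genes) and 27 of the 33 that fell (5.28%). These counts are partly fixed by choosing the genes in a fit on the same samples and pairs, and nothing is read from them. All 59 are annotated as protein-coding. The changes were modest, with 9 genes beyond 2-fold and a median size of 0.61 on the log2 scale. RefSeq rows were compared too: 31 of the 59 genes had more than 1 transcript row, and of their 91 rows beside the chosen one with at least 90 counts all 91 moved in its direction. Rows of a gene can share reads.

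METRNL, which encodes a secreted protein of the meteorin family (chr17:81037485-81052867), stood at 10.5, 8.2 and 8.17 CPM in shControl and at 25.5, 13.7 and 18.0 CPM with shASXL2-3. It rose by 1.06 on the log2 scale (SE 0.11, adjusted p = 0.00992), with no overlap of the groups. GPR97, an adhesion G protein-coupled receptor of granulocytes now named ADGRG3, was at 2.48, 1.94 and 1.53 CPM against 4.9, 3.4 and 3.57 CPM (1.00, SE 0.16, adjusted p = 0.0308). Both also rose with shASXL2-2, by 0.66 and 0.91 (adjusted p = 0.0428 and 0.0453), and the differences between the shRNAs, 0.40 (SE 0.11, adjusted p = 0.19) and 0.08 (SE 0.15, adjusted p = 0.838), did not pass.

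NDRG1, a stress-responsive gene and target of hypoxia-inducible factor, was at 41.1, 39.5 and 47.8 CPM in shControl and at 122, 76.5 and 64.1 CPM with shASXL2-3 (0.99, SE 0.17, adjusted p = 0.0461). The rise was steepest in pair 1, and the groups did not overlap. AOC1, the diamine oxidase that degrades histamine and putrescine (chr7:150521715-150558592), went from 31.7, 27.2 and 31.8 CPM to 70.4, 43.2 and 52.3 CPM (0.85, SE 0.10, adjusted p = 0.0125). LGALS1, which encodes the sugar-binding protein galectin-1, went from 60.4, 56.2 and 51.6 CPM to 143, 86.7 and 71.7 CPM (0.79, SE 0.12, adjusted p = 0.0308). In all 3 genes every knockdown sample exceeded every control. Their log2 changes with shASXL2-2 were 0.33, 0.25 and 0.10, none of which passed, and the direct difference between the shRNAs did not pass either (adjusted p = 0.185, 0.0656 and 0.0838).

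RETN, which encodes the cysteine-rich secreted protein resistin, went from 5.69, 7.31 and 8.34 CPM to 9.13, 14.6 and 14.1 CPM (0.82, SE 0.11, adjusted p = 0.0238). NRP1, a co-receptor for semaphorins and vascular endothelial growth factor, went from 2.31, 2.25 and 2.7 CPM to 3.68, 5.37 and 4.7 CPM (0.91, SE 0.16, adjusted p = 0.0469). Neither showed overlap between the groups.

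PRDX3, the mitochondrial peroxiredoxin that removes hydrogen peroxide (chr10:120927232-120938324), was at 92.3, 82.4 and 117 CPM in shControl and at 148, 164 and 177 CPM with shASXL2-3. It rose by 0.76 (SE 0.08, adjusted p = 0.00992), and by 0.86 with shASXL2-2 (adjusted p = 0.00469). The rise was largest in pair 13, where the log2 ratio was 1.00. UCP2, an inner-membrane carrier of mitochondria, went from 117, 112 and 149 CPM to 185, 164 and 187 CPM (0.52, SE 0.08, adjusted p = 0.0308).

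KMO, kynurenine 3-monooxygenase of the tryptophan breakdown pathway, went from 19.3, 12.1 and 17.6 CPM to 30.2, 22.5 and 27.1 CPM (0.72, SE 0.08, adjusted p = 0.0125). OPN3, a light-receptor family gene, rose by 0.53 (adjusted p = 0.0308). These genes share 1691 exonic bases on opposite strands, and since the libraries were unstranded their reads cannot be told apart in that stretch. In all, 14 of the 59 genes share exonic bases with another tested gene, among them CA9 with ARHGEF39, HSH2D with RAB8A, TP73 with its antisense gene TP73-AS1, and PTPRG with PTPRG-AS1.

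CEBPD, a C/EBP family transcription factor of myeloid differentiation and inflammation, was at 25.1, 18.5 and 26.6 CPM in shControl and at 45.7, 28.9 and 37.1 CPM with shASXL2-3 (0.66, SE 0.08, adjusted p = 0.0203). CD68, a lysosomal glycoprotein of macrophages, went from 21.4, 17.7 and 19.2 CPM to 39.1, 23.9 and 24.6 CPM (0.56, SE 0.10, adjusted p = 0.0483). TMEM176B, a membrane protein of antigen-presenting cells, rose by 0.66 (adjusted p = 0.0308) and by a like amount, 0.64, with shASXL2-2. HCST, the signalling adaptor DAP10, went from 35.9, 31.9 and 24.9 CPM to 59.4, 41.6 and 33.6 CPM, so the groups overlapped although each pair moved the same way (0.52, SE 0.08, adjusted p = 0.0308).

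Further called rises were found in MEST at 0.50, an imprinted gene of the hydrolase fold family, and TFR2 at 0.37, the second transferrin receptor, which was the smallest rise called. The nuclear receptor NR2F6 rose by 0.47, CNIH1, a cargo receptor of the secretory pathway, by 0.51, and ADPGK, an ADP-dependent glucokinase, by 0.39. VEZT, a component of cadherin junctions, rose by 0.45, as did C5orf15, while FAM101B (RFLNB) rose by 0.49.

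CA9 and PNCK had the highest fitted changes and rested on pair 1. CA9, carbonic anhydrase IX of the cell surface (chr9:35673925-35681156), had 21, 1 and 2 counts in shControl and 385, 0 and 3 counts with shASXL2-3. PNCK, a calcium/calmodulin-dependent kinase, had 13, 1 and 0 counts against 84, 1 and 1. Outside pair 1 both genes were at or under the floor of 3 counts in each group. The fitted values, which depend on the prior count, were 4.10 (adjusted p = 0.0238) and 2.82 (adjusted p = 0.038), and neither gene passed without shASXL2-3 number 1 (adjusted p = 0.612 and 0.489). The other 57 genes all passed without that library.

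PRKG2, cyclic GMP-dependent protein kinase II (chr4:82008524-82136376), was among the deepest falls. It was at 3.52, 5.41 and 3.2 CPM in shControl and at 1.36, 1.91 and 0.837 CPM with shASXL2-3 (-1.56, SE 0.20, adjusted p = 0.0205). FAM65C (RIPOR3), a gene of the RIPOR family with little known function, had 33, 16 and 17 counts in shControl and 4, 4 and 3 counts with shASXL2-3. Its fitted change was -2.39 (SE 0.41, adjusted p = 0.0409), and its level in the knockdown sample numbered 25 was at the floor. Neither gene showed overlap between the groups.

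COL14A1, a fibril-associated collagen, went from 7.7, 5.82 and 4.7 CPM to 1.8, 2.9 and 2.37 CPM (-1.35, SE 0.21, adjusted p = 0.0308). The fall was -2.05 in pair 1 and -0.99 and -0.97 in the others. DLC1, a GTPase-activating protein, went from 8.06, 6.33 and 8.2 CPM to 3.23, 2.62 and 3.31 CPM, with nearly the same log2 ratio in each pair (-1.30, -1.25 and -1.29; fitted -1.30, SE 0.17, adjusted p = 0.0208).

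PAX5, a B-lineage transcription factor reported to be expressed in leukaemia with this fusion, was at 4.37, 4.93 and 6.07 CPM in shControl and at 1.5, 2.41 and 3.39 CPM with shASXL2-3 (-1.11, SE 0.17, adjusted p = 0.0308). The other B-cell markers tell little, with CD79A at 1.67 to 3.23 CPM in all 6 samples and MS4A1 at 0. Of 7 tested B-lineage genes PAX5 was the 1 call. CD79B, a subunit of the B-cell receptor, stood at -0.17 and IGLL1, a surrogate light chain gene, at 0.23.

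TAL1, a basic helix-loop-helix factor of blood stem cells and of erythroid and megakaryocytic cells (chr1:47681962-47697897), went from 48.1, 59.6 and 54.3 CPM to 35.6, 38.4 and 35.7 CPM (-0.56, SE 0.08, adjusted p = 0.03). With shASXL2-2 it stood at -0.07 (adjusted p = 0.663), and the difference between the shRNAs was -0.49 (SE 0.08, adjusted p = 0.0744). In the list of stem cell and megakaryocyte-erythroid transcription factors TAL1 was the 1 call of 15 tested, and ZFPM1, GATA2 and ERG stood at -0.31, -0.23 and -0.21.

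DLL3, an inhibitory ligand of the Notch pathway, went from 18.0, 16.6 and 12.2 CPM to 12.4, 8.34 and 5.79 CPM (-0.85, SE 0.13, adjusted p = 0.03), with overlap of the groups but a fall in each pair. NEURL1B, a ubiquitin ligase that acts on Notch ligands, fell by 0.46 on the log2 scale (adjusted p = 0.0457). Of 22 tested genes in the Notch list, DLL3 was the 1 call. The list's median was 0.04, with 12 fitted values above 0 and 10 below. At an unadjusted p under 0.05 there were 2 higher and 6 lower (9.38% and 9.3% of all genes), and the members next in p, NOTCH1, MAML3 and NRARP, stood at -0.33, -0.36 and -0.37.

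TP73, a p53 family transcription factor, went from 13.4, 24.7 and 19.7 CPM to 10.5, 12.1 and 10.1 CPM (-0.79, SE 0.13, adjusted p = 0.0409). The p53 target list had no call among 22 tested and a median of -0.10, and CDKN1A, which encodes the cyclin-dependent kinase inhibitor p21, stood at -0.59 (adjusted p = 0.0915). ZMAT3 and C12orf5 (TIGAR) of that list stood at -0.35 and -0.76.

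MERTK, a receptor tyrosine kinase for apoptotic cells, went from 9.98, 8.64 and 7.9 CPM to 6.81, 5.0 and 4.26 CPM (-0.74, SE 0.12, adjusted p = 0.0308). LRP4, a receptor of the LDL-receptor family, went from 22.5, 20.8 and 24.7 CPM to 12.5, 13.6 and 16.6 CPM (-0.68, SE 0.09, adjusted p = 0.0224). JAK1, the kinase of many cytokine receptors, went from 156, 148 and 134 CPM to 117, 108 and 111 CPM (-0.38, SE 0.07, adjusted p = 0.0409). No overlap was seen in any of the 3.

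IL27RA, a cytokine receptor chain, fell by 0.52, PLXNB1, a semaphorin receptor, by 0.53, and PTPRG, a receptor tyrosine phosphatase, by 0.61 on the log2 scale. In the list of growth factor receptors and STAT5 targets JAK1 was the 1 call of 23, with STAT3 at -0.28, JAK2 at -0.30 and OSM at 0.37. ITPR2, an inositol trisphosphate receptor that releases calcium from the endoplasmic reticulum, went from 277, 263 and 274 CPM to 175, 199 and 214 CPM (-0.48, SE 0.09, adjusted p = 0.0469).

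H6PD, the glucose-6-phosphate dehydrogenase of the endoplasmic reticulum, went from 46.5, 55.5 and 37.7 CPM to 32.4, 31.4 and 26.2 CPM (-0.62, SE 0.09, adjusted p = 0.0238). ST8SIA6, a sialyltransferase, went from 15.5, 13.6 and 12.2 CPM to 8.04, 7.26 and 8.92 CPM (-0.77, SE 0.11, adjusted p = 0.03). In the first case the fall was also called with shASXL2-2 (-0.51, adjusted p = 0.0428). In the second it was not (-0.07, adjusted p = 0.758), and the difference between the shRNAs was -0.70 (SE 0.11, adjusted p = 0.0656). INA, an intermediate filament gene, fell by 0.79 and NTNG2, a netrin-related adhesion gene, by 0.63.

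**Figure D2:**
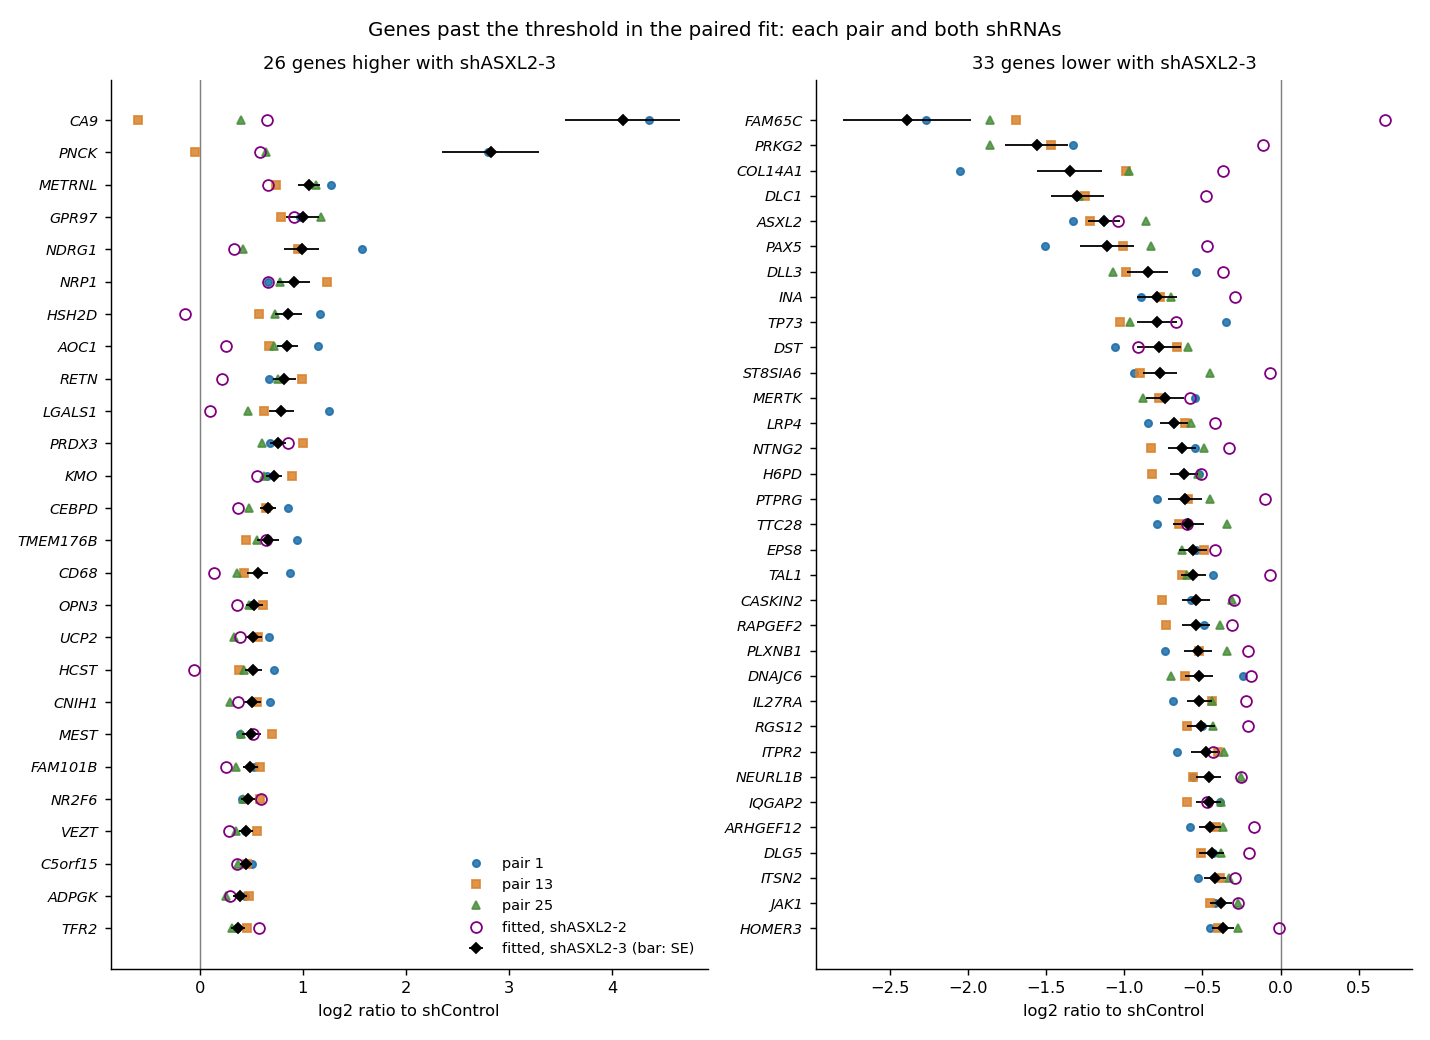
Log2 ratio to shControl, on the horizontal axis, of the 26 genes that were higher and the 33 that were lower with shASXL2-3. Coloured points are the ratios in pairs 1, 13 and 25, black diamonds the fitted shASXL2-3 change with its SE, and open circles the fitted shASXL2-2 change against the same controls. The ratios of 57 genes lie on one side of 0 in all 3 pairs, and CA9 and PNCK are the exceptions.

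Transcripts of genes for large proteins that link the parts of the cytoskeleton were lower in median. In a list of large cytoskeletal linkers (spectrins, plakins and related scaffolds), 21 members were tested. Of these, 2 were called lower and 0 higher (0.232% and 0.183% of all genes). At an unadjusted p under 0.05 there were 10 lower and 0 higher (9.3% and 9.38% of all genes). The median was -0.27, against 0.01 over all genes, with -0.39, -0.38 and -0.21 in pairs 1, 13 and 25. DST (dystonin), a plakin that ties filaments to junctions, went from 51.8, 48.6 and 76.7 CPM to 24.8, 30.7 and 51.1 CPM (-0.78, SE 0.14, adjusted p = 0.0453), and the groups overlapped. IQGAP2, a scaffold for Cdc42 and Rac, went from 92.6, 102 and 74.7 CPM to 70.4, 67.1 and 57.5 CPM (-0.46, SE 0.08, adjusted p = 0.036).

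SPTBN1, SPTAN1 and MACF1 followed at -0.47, -0.42 and -0.48 (adjusted p = 0.0504, 0.0508 and 0.097), so none of them passed. The list was -0.36 in median with shASXL2-2. Its members are long transcripts, with a median of 9441 nt, and the median was -0.08 once length and GC content were corrected for in each sample.

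ARHGEF12, a guanine nucleotide exchange factor, went from 81.0, 108 and 125 CPM to 54.1, 81.8 and 96.8 CPM (-0.45, SE 0.07, adjusted p = 0.03). The groups overlapped, with a fall in each pair. RAPGEF2, an exchange factor for Rap, fell by 0.54, and the scaffold genes EPS8, ITSN2, CASKIN2 and DLG5 fell by 0.56, 0.42, 0.54 and 0.44. RGS12, a regulator of G protein signalling, fell by 0.51 and was the 1 call of 11 tested genes of that family.

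TTC28, DNAJC6 and HOMER3, which encode a tetratricopeptide repeat protein, the clathrin-uncoating co-chaperone auxilin and a postsynaptic scaffold, fell by 0.59, 0.52 and 0.37, and HOMER3 was the smallest fall called. HOMER3 was at 98.5, 103 and 93.0 CPM in shControl and at 72.1, 78.6 and 77.1 CPM with shASXL2-3, with no overlap.

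Genes that hypoxia-inducible factor turns on had the highest median of the 59 lists, but not without shASXL2-3 number 1, when it was 0.27 and that of the myeloid granule list 0.34. This transcription factor binds short sites, the letters ACGTG among them, and raises genes of oxygen supply and glucose breakdown when oxygen is low. Of 21 tested members, 2 were called, CA9 and NDRG1, both higher (0.183% of all genes were called higher). The CA9 call rested on the library shASXL2-3 number 1. At an unadjusted p under 0.05 there were 15 higher and 0 lower (9.38% and 9.3% of all genes). The median was 0.46, and all 21 fitted values were above 0. The pairs differed widely, with medians of 0.95, -0.03 and 0.42 in pairs 1, 13 and 25, and 9 of the 21 were higher in all 3 pairs (42.9%, against 20.2% of all genes).

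P4HA1, a prolyl hydroxylase of collagen, was at 163, 41.8 and 51.5 CPM in shControl and at 407, 48.4 and 105 CPM with shASXL2-3 (0.89, SE 0.17, adjusted p = 0.0537). BNIP3, a mitophagy receptor, was at 210, 36.1 and 32.9 CPM against 582, 32.2 and 110 CPM (1.09, SE 0.28, adjusted p = 0.108). FAM162A, a mitochondrial gene, was at 78.2, 43.1 and 50.7 CPM against 192, 52.5 and 68.4 CPM (0.69, SE 0.15, adjusted p = 0.0793). In all 3 the control numbered 1 was above the other controls, and the same-numbered knockdown sample was higher still. In pair 13 the log2 ratios were smaller, at 0.21, -0.16 and 0.28.

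The list was at 0.03 in median with shASXL2-2, and 16 of its 21 members were higher with shASXL2-3 than with shASXL2-2 at an unadjusted p under 0.05, against 11.9% of all genes in either direction. Without shASXL2-3 number 1 the median was 0.27 and 9 members were higher at that p. The correction for length and GC left it at 0.50. Sample shASXL2-3 number 1 stood apart on the first principal component, which held 52.9% of the variance, at -58.6 against -21.2 and -24.9 for the other samples numbered 1 and 4.84 to 25 for the rest. Oxygen, cell density and medium at harvest are not in the sources used here, and their part in these values was not tested.

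The stretch of 150 bases before the start of a gene held ACGTG on either strand in 12.6% of 35116 promoters of the RefSeq set (build GRCh38.p14). Among the list's 17 tested members with a promoter in the set, 10 did (58.8%). Of the called genes with a promoter in the set, 2 of 16 that rose did (12.5%) and 0 of 24 that fell. The hypoxia-inducible factor list holds targets of a factor that binds ACGTG, so its share was partly fixed by that choice. ACGTG is also part of the E-box CACGTG, which other factors bind, so a match is only a description of these letters. No other form of the factor's site was searched for, so the shares do not count all its sites. Shown are the 3 members with the smallest unadjusted p that had a match, to let the letters be seen in place, with the match in capitals and the other bases in lower case. CA9 is at chr9:35673778-35673927 (plus strand), P4HA1 at chr10:73096867-73097016 (minus strand) and FAM162A at chr3:122384032-122384181 (plus strand), each ending at the base before the start.
CA9: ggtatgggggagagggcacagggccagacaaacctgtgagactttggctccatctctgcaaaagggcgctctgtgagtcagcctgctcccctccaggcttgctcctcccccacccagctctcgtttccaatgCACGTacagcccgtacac
P4HA1: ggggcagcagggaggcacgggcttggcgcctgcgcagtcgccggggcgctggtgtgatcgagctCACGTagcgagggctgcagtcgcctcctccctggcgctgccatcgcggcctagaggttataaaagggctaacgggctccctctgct
FAM162A: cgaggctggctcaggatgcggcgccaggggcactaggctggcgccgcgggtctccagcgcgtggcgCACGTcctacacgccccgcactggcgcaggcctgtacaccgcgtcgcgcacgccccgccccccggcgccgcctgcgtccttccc

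The matches begin 18, 86 and 84 bases before the start. In each of the 3 the capitals read CACGT, the letters of ACGTG on the other strand.

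Glycolysis genes, which overlap the previous list in ALDOC, HK2 and SLC2A1, showed the same order of pairs. Of 23 tested, 0 were called, and the median was 0.30. At an unadjusted p under 0.05 there were 16 higher and 1 lower (9.38% and 9.3% of all genes). The pair medians were 0.70, 0.03 and 0.24. LDHA, lactate dehydrogenase A, was at 529, 354 and 383 CPM in shControl and at 911, 404 and 554 CPM with shASXL2-3 (0.50, SE 0.10, adjusted p = 0.0617). PGAM1, phosphoglycerate mutase, stood at 0.36 (adjusted p = 0.0503), and SLC16A3, the lactate exporter MCT4, at 0.84 (adjusted p = 0.0688) with 298 CPM in the knockdown sample numbered 1 against 119 CPM in its control. The summed level of the list was 26300 CPM in that sample and 14100 to 17100 CPM in the others. The list's median was 0.03 with shASXL2-2, and 0.19 with shASXL2-3 without the library numbered 1.

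**Figure D3:**
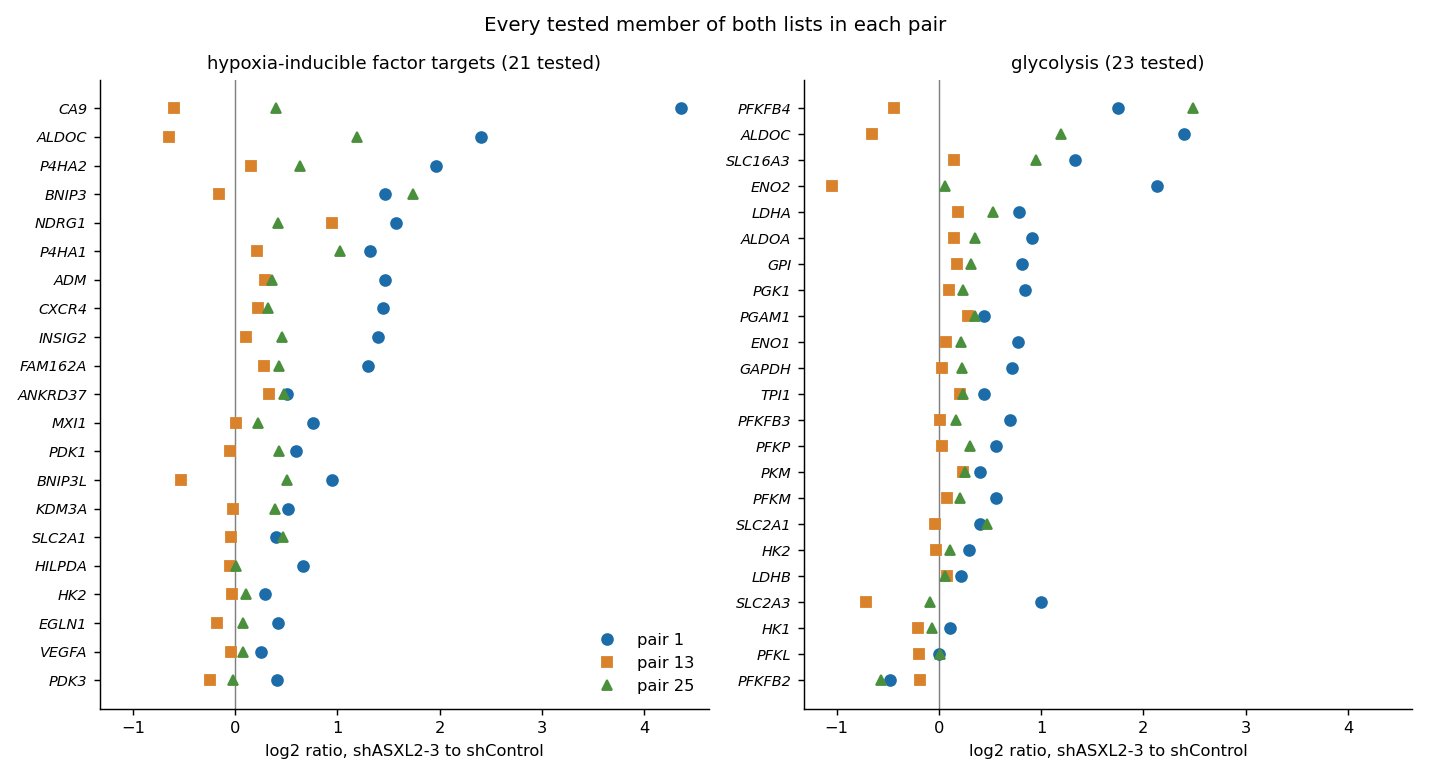
Log2 ratio of shASXL2-3 to shControl in each pair for the 21 tested hypoxia-inducible factor targets and the 23 tested glycolysis genes. Pair 1 lies furthest to the right for most genes, pair 13 is spread around 0, and the medians in pairs 1, 13 and 25 are 0.95, -0.03 and 0.42 on the left and 0.70, 0.03 and 0.24 on the right.

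Genes of the mitochondrial respiratory chain encoded in the nucleus varied less between pairs. Of 81 tested, 0 were called, and 77 of the fitted values were above 0. At an unadjusted p under 0.05, 38 were higher and 0 lower (9.38% and 9.3% of all genes). Their median was 0.16, with 0.13, 0.23 and 0.12 in the pairs, and 60 of the 81 were higher in all 3 pairs (74.1%, against 20.2% of all genes). NDUFB4, a complex I subunit, was at 78.1, 79.1 and 82.2 CPM in shControl and at 107, 103 and 94.2 CPM with shASXL2-3 (0.35, SE 0.07, adjusted p = 0.0621). COX7C of complex IV stood at 0.31 and ATP5O of the ATP synthase at 0.28. The median with shASXL2-2 was 0.20, and 0.11 with shASXL2-3 after the correction for length and GC.

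Mitochondrial ribosomal proteins followed, with 24 of 76 at an unadjusted p under 0.05, all higher (31.6%, against 18.7% of all genes), and a median of 0.12 that was 0.06 after the correction for length and GC. MRPL23, MRPL10 and MRPL55 stood at 0.29, 0.27 and 0.30. Cytosolic ribosomal proteins had 31 of 83 higher and 1 lower at an unadjusted p under 0.05 (9.38% and 9.3% of all genes). Their median was 0.21, but the pair medians were 0.50, 0.00 and 0.11. Without shASXL2-3 number 1 the median was 0.10 with 7 higher. It was 0.14 with shASXL2-3 after the correction for length and GC, and 0.06 with shASXL2-2. RPLP2 stood at 0.28 and RPL22L1 at 0.25. Ribosomal protein genes have many processed copies in the genome, and how the authors' counting shared such reads is not given in the sources used here.

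The proteasome list had a median of 0.10, with 7 of 44 at an unadjusted p under 0.05, all higher (15.9%, against 18.7% of all genes), PSMA1 and PSMB10 among them at 0.22 and 0.23. Its median was 0.04 after the correction for length and GC and 0.17 without shASXL2-3 number 1. In the list of peroxiredoxin, thioredoxin and antioxidant genes PRDX3 was the 1 call of 29. TXN, thioredoxin itself, stood at 0.26 and GLRX, glutaredoxin, at 0.27, while SOD2, the mitochondrial superoxide dismutase, stood at -0.38 (adjusted p = 0.0503). SOD2 was at 48.5, 46.9 and 44.6 CPM in shControl and at 39.1, 32.2 and 36.2 CPM with shASXL2-3, with no overlap.

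The list for the unfolded protein response and the stress factor ATF4 had no call among 28 tested. At an unadjusted p under 0.05 there were 15 higher and 0 lower (9.38% and 9.3% of all genes). The median was 0.24 (0.45, 0.18 and 0.03 in the pairs). SLC3A2, an amino acid transporter chain, stood at 0.30, PHGDH, the first enzyme of serine synthesis, at 0.31, and VLDLR, a lipoprotein receptor, at 0.55. Heat shock and chaperone genes gave 0 of 17 in either direction (18.7% of all genes), with a median of -0.01. Cholesterol and fatty acid synthesis genes had a median of 0.15, but it was 0.46, -0.20 and 0.20 in the pairs and 0.02 without shASXL2-3 number 1, and FDPS, a farnesyl diphosphate synthase, was at 227, 193 and 183 CPM against 371, 195 and 214 CPM.

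Myeloid transcription factors had 1 call, CEBPD, among 18 tested, and 9 higher and 0 lower at an unadjusted p under 0.05 (9.38% and 9.3% of all genes). Their median was 0.22, with 0.41, 0.12 and 0.23 in the pairs and 0.03 with shASXL2-2. SPI1 was at 208, 213 and 208 CPM in shControl and at 235, 238 and 246 CPM with shASXL2-3 (0.19, SE 0.07, adjusted p = 0.168), with no overlap. FOS, an immediate early gene, differed more between numbers than between groups, at 4.62, 1.77 and 31.6 CPM against 6.54, 2.01 and 55.2 CPM (0.59, adjusted p = 0.133), and ID2 stood at 0.32.

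Granule and maturation genes of myeloid cells had no call among 18 tested. At an unadjusted p under 0.05 there were 5 higher and 1 lower (9.38% and 9.3% of all genes). The median was 0.31, with 0.11, 0.43 and 0.15 in the pairs and 0.01 with shASXL2-2. BPI, a bactericidal granule protein, was at 0.963, 0.442 and 0.4 CPM against 2.25, 1.2 and 0.619 CPM (1.14, adjusted p = 0.0972), and EPX, eosinophil peroxidase, stood at 0.42. CSF3R, the receptor for granulocyte colony-stimulating factor, went the other way, from 282, 219 and 174 CPM to 207, 152 and 147 CPM (-0.41, adjusted p = 0.0786). Feedback genes of ERK signalling had 10 of 21 higher and 0 lower at an unadjusted p under 0.05 (9.38% and 9.3% of all genes). Their median was 0.23, with 0.41, 0.05 and 0.25 in the pairs and -0.02 with shASXL2-2. Without shASXL2-3 number 1 the median was 0.16, with 7 higher at that p. ETV5, ETV4 and DUSP10 stood at 0.42, 0.61 and 0.44.

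Among surface and stem cell markers of leukaemia there was no call in 16 tested. CD44, a hyaluronan receptor, was at 323, 293 and 277 CPM in shControl and at 523, 369 and 343 CPM with shASXL2-3 (0.45, SE 0.09, adjusted p = 0.0504), with no overlap, and CD244 and CD96 stood at 0.35 and -0.22. In the list of chemokines and interleukin receptors IL27RA was the 1 call of 47. CXCL8, the neutrophil chemokine interleukin-8, was at 10.8, 14.1 and 20.1 CPM against 27.9, 22 and 30.8 CPM (0.89, SE 0.17, adjusted p = 0.0504). IL18R1, a receptor for interleukin-18, was at 4.81, 6.33 and 5.94 CPM against 3.17, 1.79 and 1.82 CPM (-1.34, SE 0.30, adjusted p = 0.0793). Neither passed, and neither showed overlap.

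Of 39 tested chromatin remodellers, 0 were called, and 38 of the fitted values were below 0. At an unadjusted p under 0.05, 15 were lower and 0 higher (9.3% and 9.38% of all genes). Their median was -0.18, with -0.32, -0.22 and -0.05 in the pairs. CHD7, a remodeller of enhancers, was at 59.4, 67.0 and 62.4 CPM in shControl and at 32.5, 48.4 and 50.6 CPM with shASXL2-3 (-0.55, SE 0.11, adjusted p = 0.0508), with no overlap. SRCAP, which places the histone variant H2A.Z, and BPTF of the NURF complex stood at -0.45 and -0.35. After the correction for length and GC the median was -0.07, and the transcripts of the list are long, at 7684 nt in median. Among the 2693 genes with the longest transcripts, 652 were lower and 82 higher at an unadjusted p under 0.05.

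For the complexes that methylate histone H3 at lysine 4, 15 genes were tested, with a median of -0.14. At an unadjusted p under 0.05, 7 were lower and 1 higher (9.3% and 9.38% of all genes). The pair medians were -0.45, -0.15 and -0.07. KMT2A, KMT2C and SETD1B stood at -0.55, -0.50 and -0.43 (adjusted p = 0.0887, 0.0887 and 0.109). After the correction for length and GC the list's median was still -0.14. KMT2A and KMT2C, with transcripts of 16600 and 16860 nt, then stood at -0.31 and -0.27. Polycomb repressive complex 2, which methylates lysine 27, gave 0 of 11 at an unadjusted p under 0.05 in either direction (18.7% of all genes). Its fitted values lay between -0.06 and 0.17. In Polycomb repressive complex 1, CBX2, a chromodomain subunit, was at 116, 109 and 103 CPM against 64.7, 83.6 and 90.2 CPM (-0.46, SE 0.12, adjusted p = 0.105), and PCGF1 stood at 0.32. DNA methylation enzymes had a median of -0.18, which was -0.07 without shASXL2-3 number 1 and also -0.07 after the correction for length and GC, and DNMT3B, TET3 and TET1 stood at -0.44, -0.26 and -0.34.

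Cell-cycle lists lay near all genes. DNA replication genes had a median of -0.02. Of 43, 1 was at an unadjusted p under 0.05 (18.7% of all genes), POLE, a replicative polymerase, at -0.34. Mitosis genes had a median of 0.01 with 1 higher and 3 lower of 39 at that p (9.38% and 9.3% of all genes). MKI67, the proliferation antigen Ki-67, was at 459, 480 and 498 CPM against 256, 367 and 440 CPM (-0.47, SE 0.12, adjusted p = 0.109). In pair 1 the medians of these lists were -0.16 and -0.14. The MYC and nucleolar list and the splicing factors had medians of 0.01 and 0.02, and in the BCL2 family BCL2 itself stood at 0.26 (adjusted p = 0.0946) among 17 tested with no call.

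**Figure D4:**
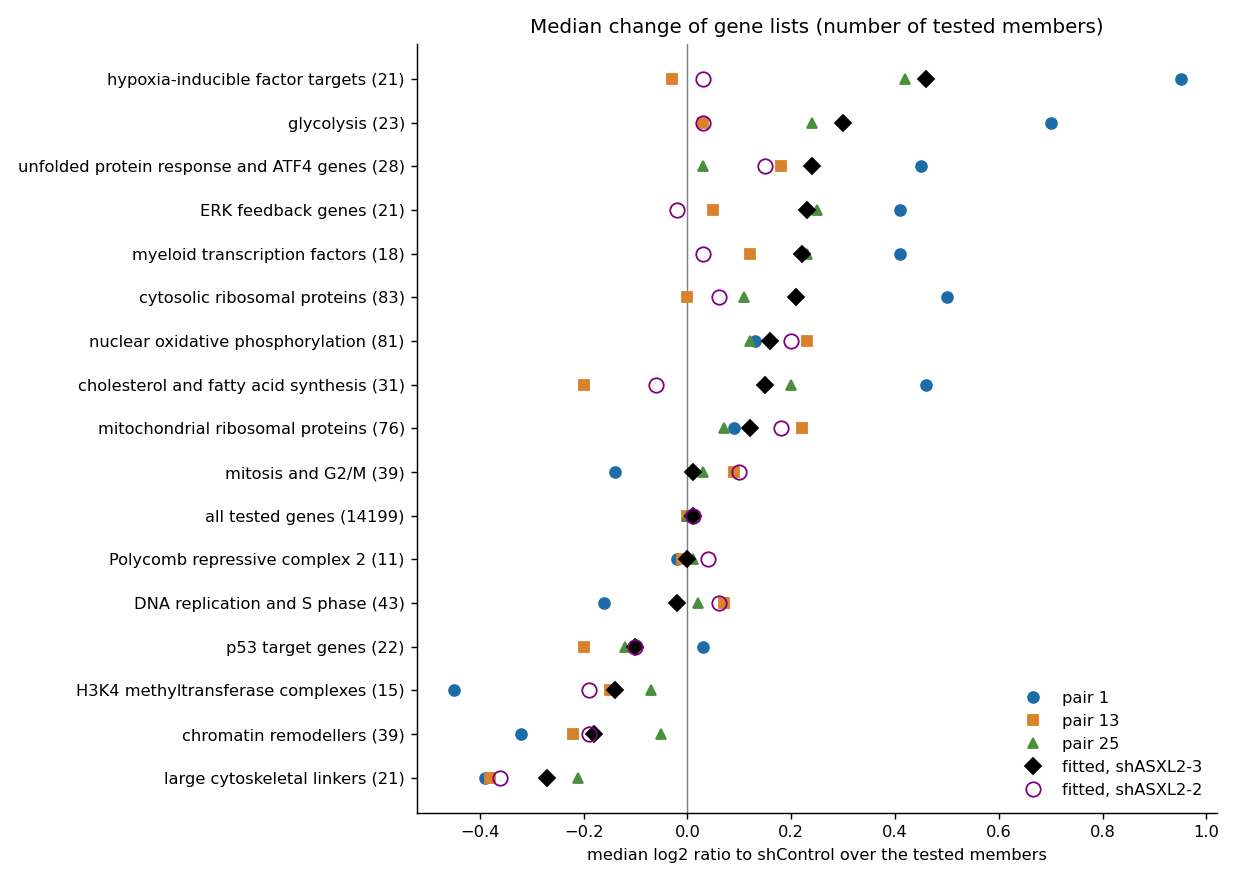
Median log2 ratio to shControl over the tested members of 16 gene lists and over all tested genes, with the number of tested members in brackets. Coloured points are pairs 1, 13 and 25, black diamonds the fitted shASXL2-3 values and open circles the fitted shASXL2-2 values. Hypoxia-inducible factor targets reach 0.46 for shASXL2-3 and 0.03 for shASXL2-2, and large cytoskeletal linkers -0.27 and -0.36.

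Interferon-stimulated genes had no call among 33 and a median of 0.06. Of them IFIT3 and GBP2 stood at 0.58 and 0.67, and GBP2 was at 54.5 CPM in the knockdown sample numbered 1 against 15.2 to 21.7 CPM in the others of its group. Antigen presentation genes had a median of -0.09 that was -0.27 without shASXL2-3 number 1 (0.37, -0.48 and -0.03 in the pairs), with CIITA, the master regulator of MHC class II, at 23.0, 17.9 and 11.1 CPM against 17.3, 5.5 and 9.03 CPM (-0.77, adjusted p = 0.126). Iron handling genes had 8 of 21 higher and 0 lower at an unadjusted p under 0.05 (9.38% and 9.3% of all genes). Their median was 0.15, which was 0.10 without shASXL2-3 number 1 and 0.09 after the correction for length and GC. TFR2 was called, and FTL and FTH1, the ferritin chains, stood at 0.38 and 0.32. The pair ratios of FTH1 were 0.74, 0.11 and 0.09.

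Transcript length moved with the direction of change. In 5 classes of about equal gene number, from the shortest (75 to 1644 nt) to the longest transcripts (5476 to 109224 nt), the median log2 change went from 0.10 through 0.06, 0.01 and -0.02 to -0.10. The same order was present in each of the 3 pairs. The called genes that rose had a median length of 2285 nt and those that fell 6122 nt, against 3109 nt over all tested genes. With length and GC content corrected for in each sample, 23 of the 59 genes were called, 14 higher and 9 lower, and all 59 kept their direction. The 23 included ASXL2, METRNL, PRDX3, KMO, AOC1, CEBPD, CA9, PRKG2, DLC1, DLL3, MERTK and H6PD. Among those not called with the correction were NDRG1, COL14A1, PAX5, TP73, TAL1, DST, IQGAP2, JAK1 and ITPR2. RNA quality values are not in the sources used here.

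**Figure D5:**
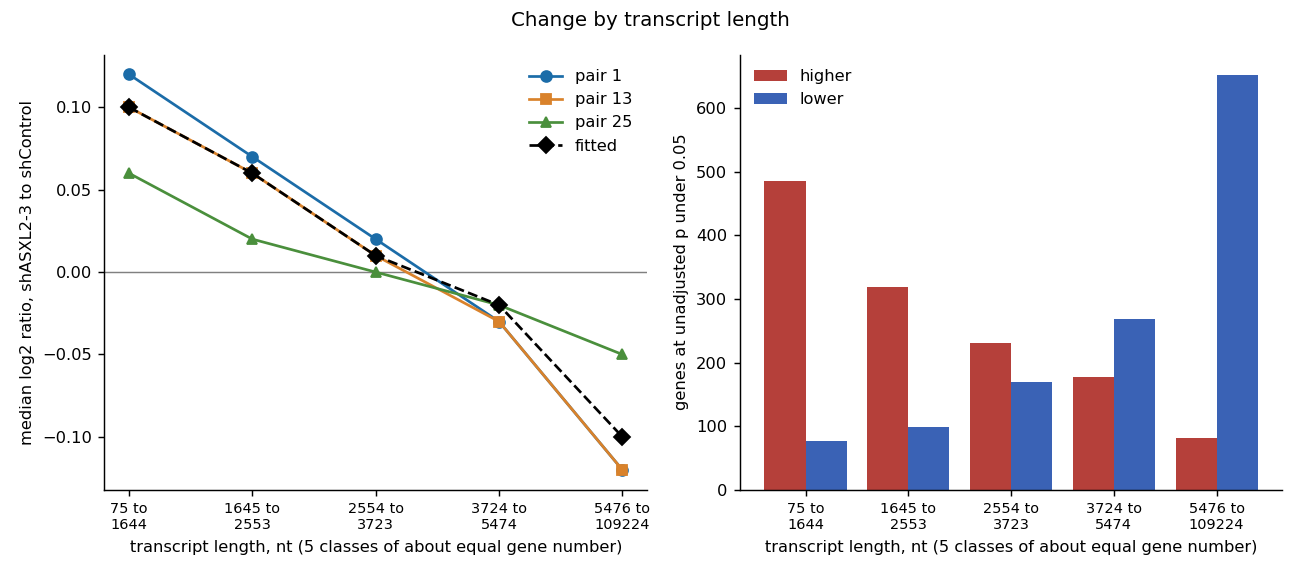
Left: median log2 ratio of shASXL2-3 to shControl in 5 classes of transcript length, for each pair (coloured) and for the fit (black, dashed). Right: number of genes at an unadjusted p under 0.05 in each class, higher and lower with shASXL2-3. The fitted median goes from 0.10 in the shortest to -0.10 in the longest class, where 652 genes were lower and 82 higher.

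Since both shRNAs were compared with the same 3 controls, their values are given side by side and the difference between them was tested directly. Of the 59 genes, 56 had the same sign with shASXL2-2, and 13 were called there as well, among 40 called in that comparison (0.282%). The 59 were chosen against the same controls that enter the shASXL2-2 values, so both counts are partly fixed by that choice. The share of all genes with the same sign was not computed, and nothing is read from either count. These 13 were ASXL2, METRNL, GPR97, PRDX3, KMO, TMEM176B, MEST, NR2F6, TFR2, DST, H6PD, IQGAP2 and TTC28. The fitted change was larger in size with shASXL2-3 for 52 of the 59, which is partly fixed by choosing the genes in that contrast. In the direct test, 15 genes passed (0.106%), 5 of them among the 59: CA9, HSH2D and HCST higher, and PRKG2 and FAM65C lower with shASXL2-3. At an unadjusted p under 0.05 for the difference there were 36 of the 59, against 11.9% of all genes. Since the 59 were chosen with the same shASXL2-3 samples, nothing is read from that count.

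HSH2D, a haematopoietic adaptor protein, was at 9.82, 5.27 and 4.2 CPM in shControl and at 22.2, 7.87 and 6.99 CPM with shASXL2-3. The shASXL2-2 samples had 9.51, 4.58 and 3.71 CPM. The level differed between numbers by more than between groups, so the groups overlapped, but within each number shASXL2-3 was highest. PRKG2 was at 3.78, 3.95 and 3.29 CPM with shASXL2-2, which overlapped the controls and lay above all 3 shASXL2-3 samples. FAM65C was at 1.64, 0.533 and 1.14 CPM with shASXL2-2, and HCST at 38.7, 29.8 and 21.8 CPM.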

How the data were processed

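Poly(A)-selected, unstranded RNA-seq of SKNO-1 cells was analysed for 3 shASXL2-3 and 3 shControl samples, with 3 shASXL2-2 samples in the same fit. The authors deposited whole-number counts per RefSeq transcript (48104 rows per sample, hg19), not normalized. The submitters' processing notes name STAR, featureCounts and DESeq2 without roles or versions, and the study's methods name Cuffdiff. Each of 25680 symbols was represented by its row with the highest total over the 9 files (9509 symbols had several). Here edgeR 4.0.16 in R 4.3.3 was run: filterByExpr (minimum count 10, total 15; 14199 genes kept), TMM scaling, quasi-likelihood F test, 1 coefficient per group, replicate number as a block (4 residual degrees of freedom), Benjamini-Hochberg adjustment, threshold 0.05. The SE is the size of the log2 fold change divided by the square root of F. CPM values are counts per TMM-scaled library total with 1 row per gene, and floors use the unscaled total. The pairing by number was part of how the comparison was defined. Deviations from the group means correlated at 0.731, 0.398 and 0.641 within numbers 1, 13 and 25. Correlations between different numbers were not computed, so these values cannot show that the numbers mark matched samples. The log2 ratios of the pairs correlated at 0.0938 (1 and 13), 0.252 (1 and 25) and 0.221 (13 and 25). Positions and lengths come from GENCODE (release 44 lifted to GRCh37), matched for 24226 symbols (13463 tested genes with a length). Pair ratios are differences of log2 CPM with a prior count of 2.

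Genes named were ASXL2, ASXL1, BAP1, RUNX1, RUNX1T1, NOTCH2 and TET2, the 15 largest rises and falls among calls, all calls and up to 3 further members of each described list, and calls that differ between the shRNAs. Called genes outside that rule were named after their values were seen. The members and lists were chosen with earlier results of these data known, and lists are described by counts and medians with no set test. DESeq2 1.42.0, other scaling, filters and row choices, and a length and GC correction were among the alternatives. So was leaving out each shASXL2-3 and shControl sample in turn, and each replicate number as a whole. Samples of the other shRNA were left out only with their whole number, never singly. The fits were tested on simulated data. Some markers and 1 gene list are not reported here.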

Additional observations from a re-analysis of the deposited data

Results flagged for a closer look

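Of the genes called for shASXL2-3, 5 also passed the test of the difference between the shRNAs, which is what marked them here. The log2 change with shASXL2-3 minus that with shASXL2-2 was -3.07 for FAM65C (SE 0.38, edgeR adjusted p = 0.0269), -1.45 for PRKG2 (SE 0.20, adjusted p = 0.0375), 0.58 for HCST (SE 0.08, adjusted p = 0.0407), 0.99 for HSH2D (SE 0.13, adjusted p = 0.0363) and 3.44 for CA9 (SE 0.52, adjusted p = 0.0476). For FAM65C and PRKG2 all 3 shASXL2-3 samples lay below all 3 shASXL2-2 samples. For HCST and HSH2D the samples overlapped and each number went the same way. CA9 rested on the single library shASXL2-3 number 1, with 385 counts.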

How the results depend on the processing

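The log2 fold change of ASXL2 lay between -1.28 and -1.04 when single samples or numbers were left out, and it passed in each of these fits. It did not pass in edgeR with no replicate block (-1.12, adjusted p = 0.612) or when only the 6 samples of the comparison were fitted with the block (-1.14, adjusted p = 0.0785), and it passed under the other alternatives. Against 59 calls in the main fit, edgeR's fit with no replicate block gave 0, and the fit of the 6 samples alone 0 (1986 genes at an unadjusted p under 0.05). There were 410 with no filter on low counts, 26 with the sum of all transcript rows, 23 with the length and GC correction together with the replicate block, 474 with DESeq2 and the block and 26 with DESeq2 and no block. Leaving out samples gave 1 to 368. Against 15 genes that differed between the shRNAs in the main fit, edgeR with no replicate block gave 0. DESeq2 gave 11 with no block (8 of the 15 among them) and 155 with the block. No filter gave 162, the sum of rows 6, the length and GC correction 8, and leaving out samples 0 to 257. The cause of these shifts was not tested. Samples of the shRNA other than shASXL2-3 were left out only with their whole number. The range for the difference between the shRNAs therefore does not cover the loss of one of them alone. RLE and upper quartile scaling gave 55 and 51 calls, a stricter filter 48 and the test of genes with a known length, uncorrected, 49. All these counts are of every call in a fit, not only of calls among the 59. Calls kept from the 59 were 57 without shASXL2-3 number 1, 56 with DESeq2 and the block, and 23 after the correction for length and GC. They were 21 with the sum of all transcript rows and 36 without shASXL2-3 number 13. Without all samples numbered 13 they were 6, and without shControl number 13 they were 5. Among the single genes described, 4 values changed sign: BAP1 at 0.03, 0.02 and 0.00 without the replicates numbered 1, without shASXL2-3 number 1 and without shControl number 1 (range with samples left out -0.05 to 0.03), and NOTCH2 at 0.06 with the length and GC correction. Depth limits genes near 3 counts, such as CA9, PNCK and FAM65C.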

Other observations

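Some genes that did not pass for shASXL2-3 against shControl passed between the shRNAs, and they are named after their values were seen. CERCAM, a cell adhesion gene, stood at 0.36 with shASXL2-3 and -0.73 with shASXL2-2 (difference 1.10, SE 0.11, edgeR adjusted p = 0.0106). MACC1, a regulator of MET expression, stood at 0.16 and -0.66 (difference 0.82, SE 0.10, adjusted p = 0.0269). PTGER4, a prostaglandin E2 receptor, stood at -0.04 and -0.61 (difference 0.57, SE 0.09, adjusted p = 0.0476). All 3 were called for shASXL2-2 against shControl (adjusted p = 0.0428 each). TRH, thyrotropin-releasing hormone, stood at -0.46 and 0.42, and TIMP3, an inhibitor of metalloproteinases, at -0.72 and 0.52, in both cases with neither shRNA called against shControl and the difference past the threshold (adjusted p = 0.0269 and 0.0476). The control samples enter these tests through the shared spread and the block: of 15 genes that passed, 1 did without shControl number 25, and 25 genes passed without shControl number 1. Without the replicate block edgeR called 0 and DESeq2 11 genes for this difference.

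Lysosomal genes had no call among 36 tested and a median of 0.09 (0.05 after the correction for length and GC), with CTSH, CTSL and PSAP at 0.43, 0.57 and 0.29. Mast cell and basophil genes had a median of -0.09 among 13 that was -0.34 without shASXL2-3 number 1 (0.17, -0.37 and -0.25 in the pairs), with HPGDS, a prostaglandin D synthase, at 6.68, 2.86 and 1.77 CPM in shControl and 3.71, 1.48 and 1.38 CPM with shASXL2-3 (-0.75, adjusted p = 0.108). Replication-dependent histone genes, whose transcripts mostly lack poly(A) tails, had a median of -0.23 among 22 with pair values of -0.29, -0.75 and 0.31.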
